A study of Homo sapiens with 59 samples.

Results

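The chromatin of the keratin-associated protein (KRTAP) genes was examined in NCI-H661, a human cell line established from metastases of a large cell carcinoma of the lung. The members were all protein-coding genes of GENCODE 44 whose symbol is KRTAP followed by a family number and a gene number, 94 of 20007 protein-coding genes. Each was represented by the 3001 bp window of 1500 bp on both sides of the canonical transcription start site (TSS), and by the gene cluster it lies in. Histone marks were profiled by ChIP-Rx-seq, a ChIP-seq assay that carries spiked-in mouse chromatin. In the knockdown experiment, cells carrying doxycycline-inducible miR30-based shRNAs against DPPA2, against DPPA4 or against both (lines shDPPA2, shDPPA4 and shDPPA2+4) were kept for 7 days with 2 µg/ml doxycycline (DOX) or with water (H2O). All 3 lines were profiled under both treatments for H3K4me3 in replicates 1 and 2, and for H3K27me3 and H2AK119ub in replicates 1 and 3. In the inhibitor experiment, parental cells without an shRNA were kept for 1 day with 10 µM A-485, which blocks the catalytic activity of the histone acetyltransferases p300 and CBP, or with its solvent DMSO. H3K27me3 (replicates 2, 3 and 4), H2AK119ub (replicates 3 and 4), H3K27ac (replicates 2 and 4) and, under DMSO alone, SUZ12 (replicate 3) were profiled. The shRNA lines were sorted bulk populations with the construct inserted by PiggyBac transposition, and no line with a control shRNA was among these samples, so DOX itself and the knockdown cannot be told apart. The study describes its replicates as biological and the labels give only replicate numbers, so the p-values below reflect how much these samples differ among themselves, which may be technical.

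KRTAPs are small matrix proteins of the hair shaft that surround the keratin filaments of the hair cortex and cuticle and are cross-linked to them through disulphide bonds. The genes are expressed late in hair shaft differentiation, lie in tandem arrays and are not known for expression in lung epithelium. H3K27me3 is laid down by Polycomb repressive complex 2, of which SUZ12 is a core subunit, and H2AK119ub by Polycomb repressive complex 1. Both are commonly associated with repressed genes. In NCI-H661, however, the study reports H2AK119ub also at active promoters, together with H3K4me3 and H3K27ac and without H3K27me3. H3K4me3 and H3K27ac mark active promoters, and H3K27ac is also found at active enhancers.

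The values were read from 51 lists of enriched domains, 1 per library, which hold no RNA measurement, so neither the expression of KRTAP genes nor the knockdown of DPPA2 and DPPA4 could be read here. A promoter was counted as marked when at least 300 bp of its window lay under domains with a log2 fold over input above 1 and an FDR under 0.05. Library depth differed. The H3K27me3 libraries under H2O held 1085365 to 10545826 reads in such domains, over 48.8 to 249 Mb, and those under DOX 5989134 to 10431794 reads over 199 to 319 Mb. The shallowest H3K27me3 list was DMSO replicate 4, with 498618 reads in 29493 domains. The 3 H2AK119ub libraries labelled DOX replicate 3 stood apart. Their median overlap with H3K27me3 libraries, as a Jaccard index of covered bases, was 0.136 to 0.152 against 0.036 to 0.095 in the other 9 H2AK119ub libraries of the knockdown experiment. In the inhibitor experiment, 3 libraries overlapped another target more than their own. They were H2AK119ub DMSO replicate 3 (0.12 with H2AK119ub and 0.159 with SUZ12), H2AK119ub A-485 replicate 3 (0.134 and 0.164, likewise) and H3K27me3 DMSO replicate 4 (0.068 with H3K27me3 and 0.098 with SUZ12). Both H3K27ac lists labelled replicate 4 shared their input counts with lists of the other treatment (equal at 100% of shared domain borders, each other apart). Whether libraries or inputs were exchanged was not tested here, so the values of these lists are those of the libraries so labelled. The main differences in shares and coverage that rest on them are also given without them. Switch counts and values of single promoters are given with them alone. Promoters of 9 of 9 widely expressed genes and of DPPA2 and DPPA4 carried H3K4me3 in all 6 H2O libraries.

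The 94 genes formed 5 clusters, taking neighbours with TSSs within 500 kb as joined. On 11p15.5 lay 6 genes (KRTAP5-1 to KRTAP5-6, chr11:1583783-1698695, hg38), and on 11q13.4 lay 5 (KRTAP5-7 to KRTAP5-11, chr11:71525767-71584375). The cluster on 17q21.2 held 34 genes in 325 kb (chr17:40992664-41317210), that on 21q22.1 held 33 in 759 kb (chr21:30281450-31039976), and that on 21q22.3 held 16 (chr21:44538695-44698672), all of them inside the gene TSPEAR. Classes were set here by the composition of the annotated proteins and need not match the usual naming of the families. By it, 31 were ultrahigh sulfur KRTAPs (over 30% cysteine) and 18 were high glycine-tyrosine (at least 35% glycine plus tyrosine). The remaining 45 were called high sulfur whatever their cysteine content. Some of these held little, such as KRTAP20-4 (6.82%) and KRTAP7-1 (6.90% cysteine, 34.5% glycine plus tyrosine). The ultrahigh sulfur genes lay on 11p15.5, 11q13.4 and 17q21.2 and had a median of 34.8% cysteine, and the high glycine-tyrosine genes lay on 21q22.1, with a median of 55.5% glycine plus tyrosine. All 94 coding sequences had a single exon. KRTAP promoters were poor in CpG. Their median observed-to-expected CpG ratio was 0.199, with a highest value of 0.396, against a median of 0.567 at all other promoters, and their median GC content was 42.9% against 52.9%.

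The 250 bases upstream of the start of 6 members are shown, since they stand for the classes of promoter state described further on. They come from RefSeq (GRCh38.p14), run 5′ to 3′ on the strand of the gene, and have the dinucleotide CG and the word TATAAA in capitals. KRTAP17-1 (chr17:41315711-41315960, minus strand) and KRTAP3-2 (chr17:40999907-41000156, minus strand) had the widest H3K27me3 of all members, and KRTAP5-9 (chr11:71548170-71548419, plus strand) carried H3K27me3, SUZ12 and, in some libraries, H2AK119ub. KRTAP5-3 (chr11:1608464-1608713, minus strand), KRTAP19-1 (chr21:30480368-30480617, minus strand) and KRTAP10-1 (chr21:44540196-44540445, minus strand) stand for 11p15.5, 21q22.1 and 21q22.3.
KRTAP17-1: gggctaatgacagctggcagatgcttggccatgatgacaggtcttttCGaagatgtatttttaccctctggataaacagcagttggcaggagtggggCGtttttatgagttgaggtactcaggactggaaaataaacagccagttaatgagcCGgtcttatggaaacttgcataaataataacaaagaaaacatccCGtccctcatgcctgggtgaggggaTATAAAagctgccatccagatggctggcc
KRTAP3-2: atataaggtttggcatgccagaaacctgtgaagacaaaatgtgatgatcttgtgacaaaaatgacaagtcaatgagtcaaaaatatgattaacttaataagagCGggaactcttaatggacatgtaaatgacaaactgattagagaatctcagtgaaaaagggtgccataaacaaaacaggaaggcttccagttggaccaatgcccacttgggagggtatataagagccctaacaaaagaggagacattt
KRTAP5-9: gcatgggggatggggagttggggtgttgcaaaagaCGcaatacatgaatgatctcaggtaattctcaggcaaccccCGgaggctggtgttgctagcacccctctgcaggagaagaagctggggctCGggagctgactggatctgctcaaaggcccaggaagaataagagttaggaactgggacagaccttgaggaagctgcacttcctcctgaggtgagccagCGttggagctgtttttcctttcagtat
KRTAP5-3: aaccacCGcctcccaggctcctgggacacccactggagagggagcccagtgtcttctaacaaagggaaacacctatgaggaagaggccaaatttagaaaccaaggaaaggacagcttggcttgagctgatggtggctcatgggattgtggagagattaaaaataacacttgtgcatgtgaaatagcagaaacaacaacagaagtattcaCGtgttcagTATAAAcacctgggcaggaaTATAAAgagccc
KRTAP19-1: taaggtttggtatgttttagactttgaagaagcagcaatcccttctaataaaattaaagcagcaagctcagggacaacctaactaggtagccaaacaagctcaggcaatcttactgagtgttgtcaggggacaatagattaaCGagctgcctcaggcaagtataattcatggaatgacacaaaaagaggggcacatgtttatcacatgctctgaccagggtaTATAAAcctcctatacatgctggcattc
KRTAP10-1: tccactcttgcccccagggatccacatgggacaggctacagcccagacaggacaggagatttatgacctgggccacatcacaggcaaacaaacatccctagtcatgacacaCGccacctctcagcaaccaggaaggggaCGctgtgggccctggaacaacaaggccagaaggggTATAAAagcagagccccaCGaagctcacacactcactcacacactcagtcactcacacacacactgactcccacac
These windows held 4, 1, 4, 2, 1 and 3 CG in the order shown. The TATAAA nearest the start began 29 bases upstream of it in KRTAP17-1, 12 in KRTAP5-3, 28 in KRTAP19-1 and 76 in KRTAP10-1, and KRTAP3-2 and KRTAP5-9 held none on this strand in these bases. RefSeq promoter sequences matched 80 of the 94 members. TATAAA was found on either strand in 63 of these 80 (78.8%) against 8.86% of 15265 other promoters of the same length, and on the strand of the gene 20 to 40 bases upstream of the start in 34 (42.5%) against 3.49%. The median number of CG was 1.5 (0 to 10) in KRTAP promoters and 18 in the others.

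First, it was asked whether any KRTAP promoter carried a mark of activity. H3K4me3 marked 0 of 94 KRTAP promoters in each of the 12 libraries, under H2O and DOX alike. Over all 20007 promoters, 68.9% carried H3K4me3 in all 6 H2O libraries. The KRTAP share lay below that of all other promoters with a mean difference of -70.5 percentage points (lower in 6 of 6 libraries, exact sign-flip permutation test, p = 0.03125, the smallest value 6 pairs allow). The nearest H3K4me3 domain inside a cluster lay on 11p15.5, 2695 to 2995 bp from the TSS of KRTAP5-6, in all 12 libraries, and was 900 to 1300 bp long. Of the 4 H3K27ac libraries, 3 marked no KRTAP promoter, and DMSO replicate 4 marked 8 of 94 (8.51%). H3K27ac marked 59.1% (replicate 2) and 73.9% (replicate 4) of all other promoters under DMSO and 49.7% and 38.9% under A-485. The label of silent loci thus held at the promoters in all H3K4me3 libraries and in all H3K27ac libraries but 1, as far as histone marks can show it.

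**Figure D1:**
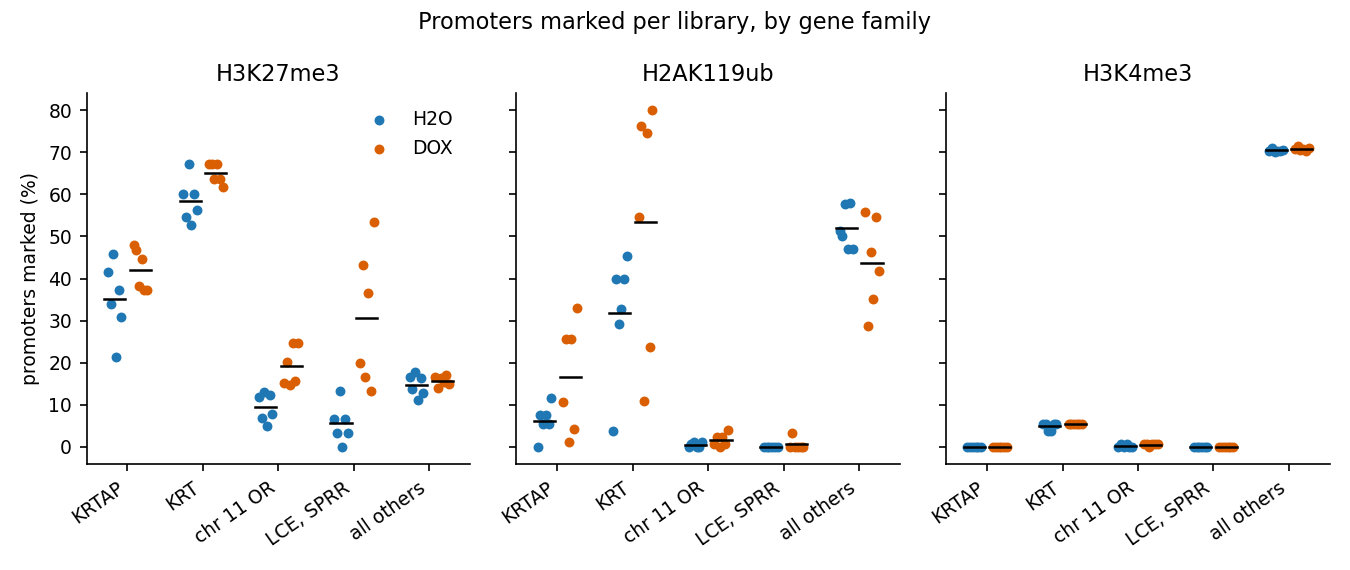
Share of promoters marked (y axis, %) by H3K27me3, H2AK119ub and H3K4me3 for KRTAP, keratin (KRT), chromosome 11 olfactory receptor (OR), LCE and SPRR, and all other genes (x axis), with 1 point per library (6 H2O, 6 DOX) and a bar for the mean. KRTAP promoters were marked by H3K27me3 in 21.3 to 47.9% of cases, by H2AK119ub in 0 to 33.0% and by H3K4me3 in none.

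Of the marks profiled, H3K27me3 was the most frequent at KRTAP genes. Under H2O it marked 41.5% (replicate 1) and 34.04% (replicate 3) of KRTAP promoters in shDPPA2, 45.7% and 21.3% in shDPPA4, and 37.2% and 30.9% in shDPPA2+4, a mean of 35.1% ± 8.59 (SD, n = 6). All other promoters were marked in 11.05 to 17.8%, so the groups did not overlap. The difference averaged 20.4 points (SD 6.12, higher in 6 of 6 libraries, exact sign-flip permutation test, p = 0.03125, adjusted p = 0.0391 over 5 comparisons). When 1500 bp were required, it was 7.97 points and did not pass (exact p = 0.09375). Olfactory receptor genes of chromosome 11, another tandem family silent outside its tissue, were marked in 5.06 to 12.9% of 178 promoters, 25.6 points below KRTAP (SD 5.78, 6 of 6 libraries, p = 0.03125 by the same exact test, adjusted p = 0.0391). The LCE and SPRR genes of the epidermal cornified envelope were marked in 0 to 13.3% of 30, and the 55 keratin (KRT) genes in 52.7 to 67.3%. KRTAP genes lay above the former and below the latter in every H2O library, as the plot of marked shares by family shows. In all 6 H2O libraries together, 17 of 94 KRTAP promoters were marked (18.1%) against 8.72% of all promoters, and a further 31 were marked in some libraries and 46 in none.

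The family was divided by cluster. Of the 17 promoters marked in all 6 H2O libraries, 14 lay on 17q21.2 and 3 on 11q13.4. On 17q21.2, 19 further genes were marked in some libraries and 1 in none. On 21q22.1, 12 of 33 were marked in some libraries and 21 in none, and the 16 genes of 21q22.3 and the 6 of 11p15.5 were marked in no H2O library. By protein class, 9 of 31 ultrahigh sulfur, 8 of 45 high sulfur and 0 of 18 high glycine-tyrosine genes were marked in all 6. The classes follow the clusters only in part. The 17q21.2 cluster held 20 ultrahigh sulfur and 14 high sulfur genes, and 21q22.1 held 15 high sulfur and 18 high glycine-tyrosine genes. Classes were not compared within a cluster, so class and position were not told apart here.

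**Figure D2:**
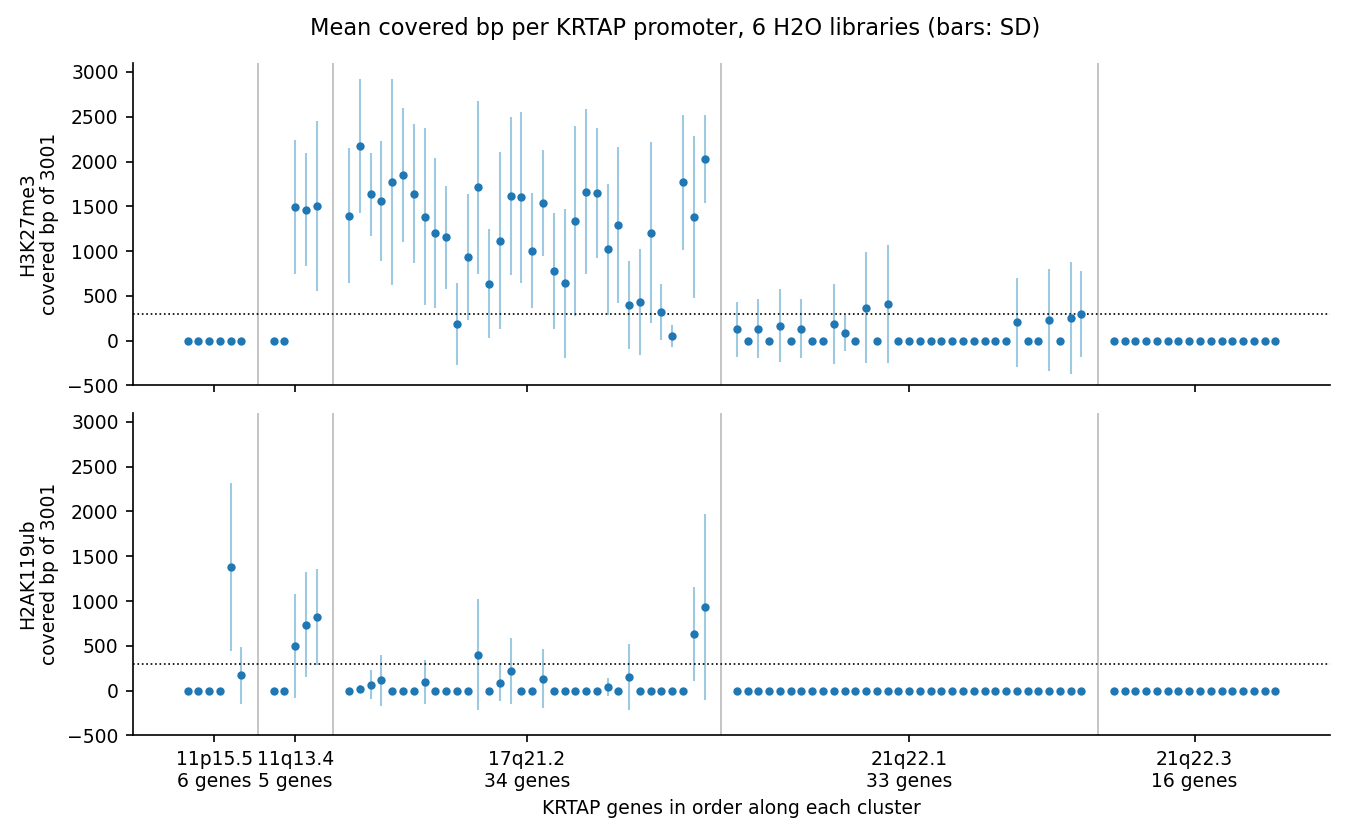
Mean covered bp of the 3001 bp promoter window (y axes) for H3K27me3 (top) and H2AK119ub (bottom) in 6 H2O libraries, with 1 point per KRTAP gene in order along each of the 5 clusters (x axis), bars for the SD and a dotted line at 300 bp. H3K27me3 lay mainly on 17q21.2 and on 3 genes of 11q13.4, with means of up to 407 bp on 21q22.1 (KRTAP19-5). All genes of 11p15.5 and 21q22.3 were at 0.

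The 17q21.2 cluster was the most widely covered by H3K27me3. Under H2O, 47.6% and 25.3% of its bases were covered in shDPPA2 (replicates 1 and 3), 56.2% and 13.9% in shDPPA4, and 48.3% and 23.97% in shDPPA2+4. The replicate 3 libraries, which also held fewer reads in domains, had the 3 lowest values. Coverage exceeded that of the rest of the genome by 31.2 points (SD 14.4, 6 of 6 libraries, exact sign-flip permutation test, p = 0.03125, adjusted p = 0.0335 over 15 comparisons). As a ratio to the rest of the genome, it was 6.93- to 9.74-fold in the 6 libraries, a narrower spread than that of the percentages. The cover was made of 79 to 161 separate domains, with gaps between them. On 11q13.4, 23.8% of bases were covered on average, 19.2 points above the rest (SD 9.83) and 4.36- to 9.04-fold. The other clusters lay below the rest of the genome, with differences of -2.45 points on 21q22.1, -4.00 points on 21q22.3 and -4.62 points on 11p15.5, where no base was covered (exact adjusted p = 0.0335 for each, 6 of 6 libraries).

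The marked stretch of 17q21.2 reached beyond the KRTAP genes. From KRT24 to KRT32 (chr17:40703752-41467386, 764 kb), 52 consecutive promoters comprised the 34 KRTAP genes and 18 type I keratin genes. Of these 52, 50 carried H3K27me3 in 3 or more H2O libraries and 28 in all 6, 14 of the latter being keratin genes. In the DOX libraries, 46 of the 52 were marked in all 6 and 0 in none. Both ends of this stretch were chosen here, and marked promoters also lay beyond them. Upstream of KRT24, the promoter of KRT222 was marked by H3K27me3 in 4 of 6 H2O libraries (mean 917 bp). Further upstream, the promoter of SMARCE1, a chromatin remodelling subunit, had 2995 bp of H3K4me3 and lay 345 kb before the cluster. Downstream, the promoter of the hair keratin gene KRT35 had 0 bp of H3K27me3 under H2O and under DOX, 164 kb past the cluster. Beyond it, KRT14 and KRT17 also had 0 bp. KRT19 was marked in 4 of 6 H2O libraries and KRT9 in all 6 (means of 1085 and 1457 bp). EIF1, a translation initiation factor gene, carried H3K4me3 in the bins further on.

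**Figure D3:**
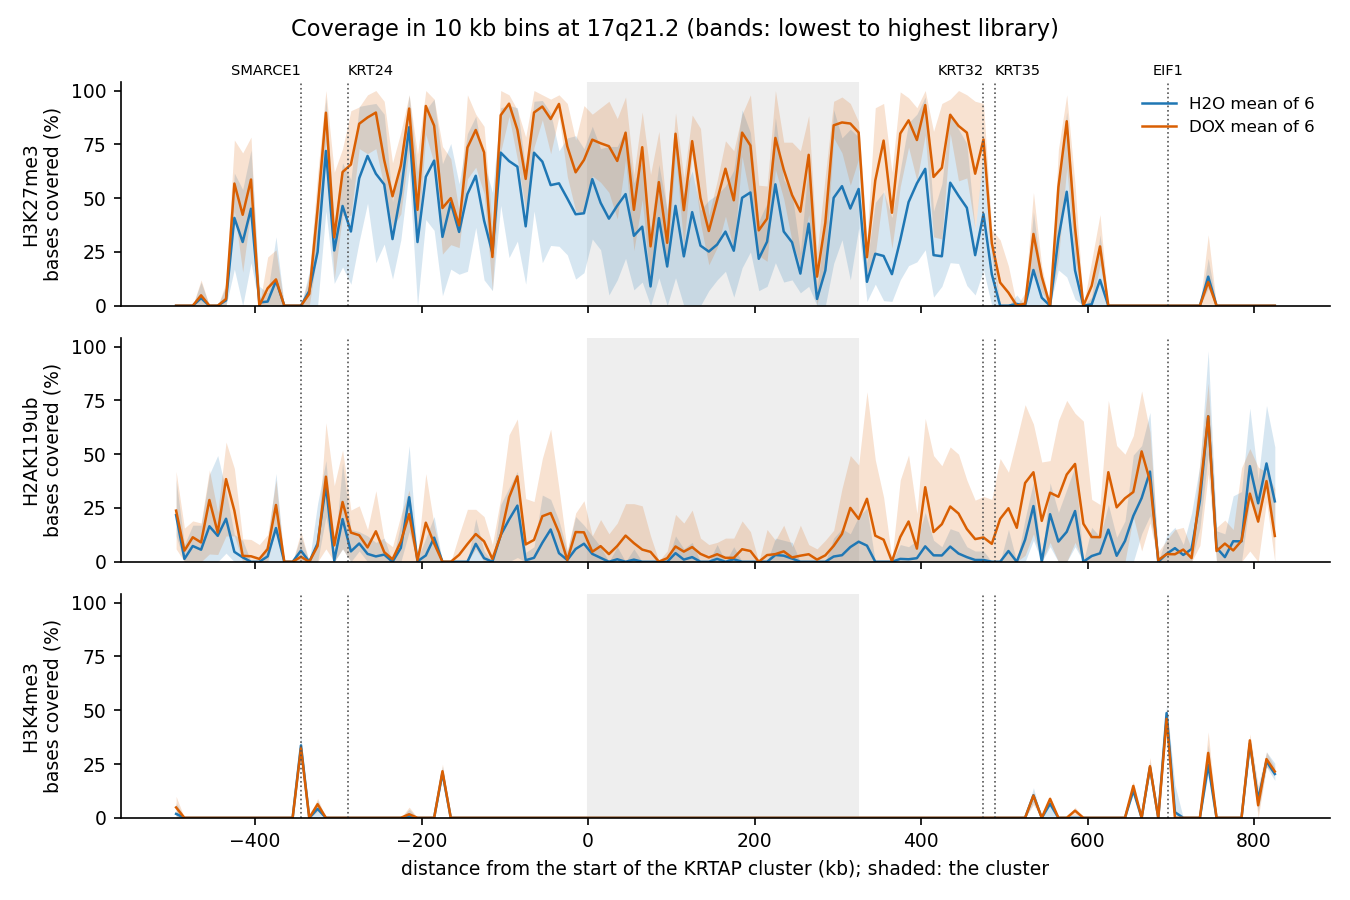
Percent of bases covered in 10 kb bins (y axes) by H3K27me3, H2AK119ub and H3K4me3 along 17q21.2, by distance from the start of the KRTAP cluster (x axis, kb, cluster shaded), with lines for the mean of 6 H2O and of 6 DOX libraries and bands from the lowest to the highest library. H3K27me3 lay across the KRTAP genes from KRT24 to KRT32, with further marked promoters beyond both, and H3K4me3 had no domain inside the shaded cluster.

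Within 17q21.2 the breadth of H3K27me3 varied among genes. KRTAP3-2, a small high sulfur KRTAP gene, had 2906 and 1606 bp in shDPPA2 (replicates 1 and 3), 2601 and 1306 bp in shDPPA4, and 3001 and 1606 bp in shDPPA2+4 under H2O. KRTAP17-1, an ultrahigh sulfur gene at the downstream end of the cluster, had 2291 and 1491, 2801 and 1801, and 2201 and 1591 bp in the same order, a mean of 2029 ± 496 bp (SD, n = 6). Neither gene was below 1306 bp in any H2O library, and the sequences of both are those shown above. KRTAP4-11, an ultrahigh sulfur gene, had 2401 and 1428, 2073 and 0, and 2273 and 1528 bp, so that 1 of 6 libraries was at 0. KRTAP9-4 had 900 and 0, 1400 and 0, and 300 and 0 bp, with all 3 replicate 3 libraries at 0. KRTAP9-7 was the lowest gene of the cluster, with a mean of 49.7 bp, and was marked in none of the 6.

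Near-identical sequence limits the alignment of reads at some members. In 9 of the 94 windows, more than 20% of 50-base words also occurred elsewhere in the genome, and 7 of the 9 lay on 17q21.2 (KRTAP4-7, KRTAP4-16, KRTAP4-9, KRTAP4-11, KRTAP9-2, KRTAP9-8 and KRTAP9-4). Values of these genes are uncertain. With the 9 left out, the 85 remaining members still exceeded all other promoters by 18.2 points in H3K27me3 under H2O (exact sign-flip permutation test, n = 6, p = 0.03125). Across the 34 genes of 17q21.2, mean H3K27me3 breadth correlated with the CpG ratio (Pearson r = 0.43) and inversely with the share of repeated words (r = -0.44), and across the 33 genes of 21q22.1 it correlated with the CpG ratio (r = 0.56). These genes share libraries and neighbours, and the correlations are descriptions only.

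The KRTAP5 genes, a family of ultrahigh sulfur proteins of the hair cuticle, lie on both arms of chromosome 11, and their 2 clusters had different marks. On 11q13.4, KRTAP5-9 had 2001 and 981 bp of H3K27me3 in shDPPA2 (replicates 1 and 3), 2801 and 1100 bp in shDPPA4, and 1001 and 1081 bp in shDPPA2+4 under H2O. KRTAP5-10 had 2001 and 900, 2238 and 863, and 1838 and 938 bp, and KRTAP5-11 had 2275 and 500, 2501 and 1275, and 2175 and 300 bp. All 3 genes were thus marked in 6 of 6 libraries, while KRTAP5-7 and KRTAP5-8 were marked in none. On 11p15.5, all 6 genes had 0 bp of H3K27me3 in all 6 libraries. KRTAP5-5 instead had H2AK119ub without H3K27me3, with 0 and 900 bp in shDPPA2, 1800 and 1900 bp in shDPPA4, and 2675 and 1000 bp in shDPPA2+4. H2AK119ub covered more of 11p15.5 than of the rest of the genome by 4.88 points (SD 2.06, 6 of 6 libraries) and more of 11q13.4 by 8.49 points (SD 4.53, 6 of 6), both with exact adjusted p = 0.0335.

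On chromosome 21, marks were few. The genes of 21q22.1, which encode the high glycine-tyrosine KRTAPs and a set of high sulfur KRTAPs, had 6 marked promoters in shDPPA2 replicate 1 and 8 in shDPPA4 replicate 1 under H2O, 1 in shDPPA2 replicate 3 and 0 in the other 3 libraries. KRTAP19-5, the widest of them, had 1541 bp in shDPPA2 replicate 1, 900 bp in shDPPA4 replicate 1 and 0 bp in the other 4. H2AK119ub marked none of the 33 promoters in any of the 12 knockdown-experiment libraries. On 21q22.3, no promoter carried H3K27me3 or H2AK119ub in these 12 libraries per mark. The promoter of TSPEAR, inside which these 16 genes lie, carried H2AK119ub in all 6 H2O libraries (mean 1072 bp) and no H3K27me3.

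H2AK119ub rarely accompanied H3K27me3 at KRTAP promoters under H2O. It marked 0 and 7.45% of KRTAP promoters in shDPPA2 (replicates 1 and 3), 5.32% and 7.45% in shDPPA4, and 5.32% and 11.7% in shDPPA2+4, against 47.1 to 58.0% of all others. The difference averaged -45.7 points (SD 7.43, lower in 6 of 6 libraries, exact sign-flip permutation test, p = 0.03125, adjusted p = 0.0391). The difference from the olfactory receptor genes, 5.74 points above them, did not pass (5 of 6 libraries higher, exact p = 0.0625; with any covered base counted, 6.62 points, exact p = 0.03125). No KRTAP promoter was marked in all 6 libraries (0 of 94 against 33.3% of all promoters), 15 were marked in some and 79 in none. Of the 9 widely expressed genes, 4 were marked in all 6. Of the KRTAP promoters with H3K27me3, 0 to 24.1% also carried H2AK119ub in the library of the same line and replicate number, against 61.8 to 76.5% of other H3K27me3 promoters. The keratin genes were not counted apart in this way. Under H2O, H2AK119ub marked 3.64 to 45.5% of the 55 KRT promoters, and none of 17 hair keratin genes in all 6 libraries. Besides KRTAP5-5, the members with most H2AK119ub were KRTAP17-1 and KRTAP5-11. KRTAP17-1 had 0 and 0 bp in shDPPA2, 2100 and 1900 bp in shDPPA4, and 0 and 1600 bp in shDPPA2+4, and KRTAP5-11 had 175 and 426, 475 and 1075, and 1401 and 1400 bp.

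SUZ12, profiled in a single DMSO library with no replicate, marked 11 of 94 KRTAP promoters (11.7%) against 12.2% of all promoters. Of the 11, 9 lay on 17q21.2 and 2 on 11q13.4. KRTAP17-1 had 2210 bp, KRTAP5-9 1900 bp, KRTAP16-1 1892 bp and KRTAP4-5 1700 bp. KRTAP4-11 had 1628 bp, KRTAP4-9 1500 bp, KRTAP9-9 1200 bp, KRTAP4-1 1090 bp and KRTAP4-2 1080 bp, and the lowest values were 700 bp at KRTAP1-3 and 575 bp at KRTAP5-11. SUZ12 covered 6.78% of 17q21.2 (6.23-fold over the rest of the genome) and 16.7% of 11q13.4 (15.3-fold), and 1.09% of the rest.

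Other genes of the hair shaft program were counted whole for comparison. Of 17 hair keratin genes, 5 carried H3K27me3 in all 6 H2O libraries (8.72% of all promoters) and 6 in none, and none carried H3K4me3. All 5 (KRT31, KRT32, KRT34, KRT37 and KRT38) lie in the stretch from KRT24 to KRT32 already counted above. KRT81 to KRT86, outside it, were marked in at most 2 of 6 libraries. Of 14 root sheath and cross-linking genes, 9 carried H3K27me3 in all 6 and none H3K4me3. KRT25, KRT26, KRT27 and KRT28, among these 9, also lie in that stretch. H2AK119ub marked none of the 17 hair keratin genes and none of these 14 genes in all 6 libraries. It marked 9 of the 17 and 6 of the 14 in no library. Of 12 regulators of the hair follicle, 10 carried H3K4me3 in all 6 libraries, against 68.9% of all promoters. H2AK119ub was carried by 10 in all 6 (33.3% of all promoters) and H3K27me3 by 4 (LEF1, SOX9, FOXQ1 and VDR, against 8.72%). FOXN1 and TP63 had 0 bp of H3K4me3. HOXC13, a transcription factor of the hair cortex and cuticle, had 2949 bp of H3K4me3 on average, 2618 bp of H2AK119ub and 0 bp of H3K27me3.

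Next, it was asked whether induction of the shRNAs altered these marks. The 3 lines carry different shRNAs and were pooled as pairs of 1 DOX effect. The p-values therefore mix differences between lines with those between replicates. For H3K27me3, the share of marked KRTAP promoters under DOX was 47.9% and 46.8% in shDPPA2 (replicates 1 and 3), 38.3% and 44.7% in shDPPA4, and 37.2% and 37.2% in shDPPA2+4, a mean of 42.02% ± 4.98 (SD, n = 6). The DOX and H2O values overlapped. The difference of 6.91 points (SD 10.6, 4 pairs higher, 1 lower and 1 equal) did not pass (exact sign-flip permutation test, p = 0.25) and was -0.355 points without the replicate 3 libraries. On 17q21.2, 59.8% and 55.5% of bases were covered in shDPPA2, 49.3% and 71.3% in shDPPA4, and 64.8% and 58.0% in shDPPA2+4, a difference of 23.9 points from H2O (SD 21.9, 5 pairs higher, 1 lower, exact p = 0.0625, adjusted p = 0.312 over 15 tests). Without replicate 3 it was 7.26 points. As a ratio to the rest of the genome, coverage was 6.91- to 8.26-fold under DOX, and the log2 ratio differed by -0.12 (SD 0.20, 2 pairs higher, 4 lower, exact p = 0.219). On 11q13.4, H3K27me3 covered 43.4% of bases on average under DOX, 19.6 points above H2O (5 of 6 pairs higher, exact p = 0.0625, 7.56 points without replicate 3) and 5.07- to 6.19-fold over the rest of the genome. On 11p15.5 it covered no base in any DOX library. Total H3K27me3 coverage and read depth were also higher in most DOX libraries (above), and their part in the difference was not tested.

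**Figure D4:**
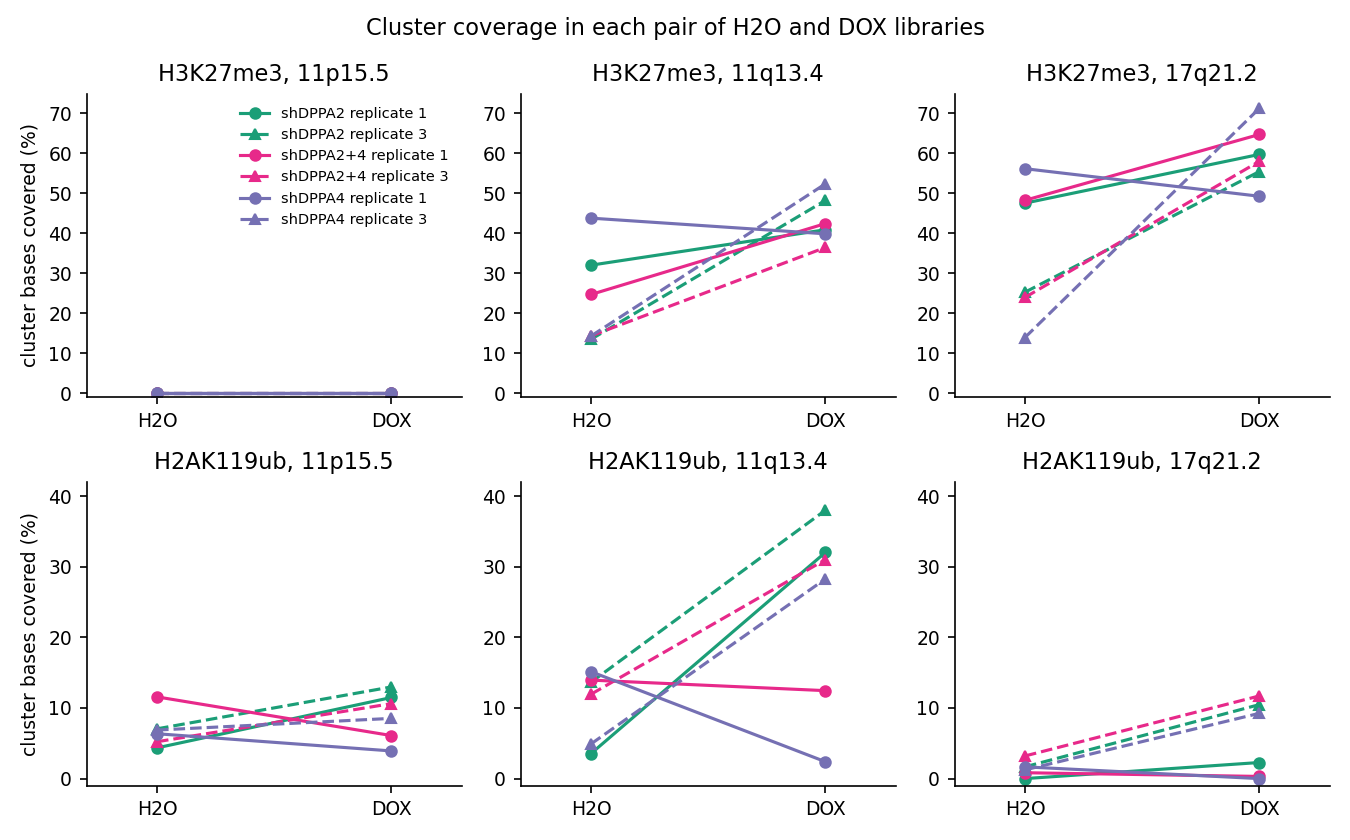
Percent of cluster bases covered (y axes) by H3K27me3 (top) and H2AK119ub (bottom) on 11p15.5, 11q13.4 and 17q21.2 under H2O and DOX (x axes), with each line joining the 2 libraries of 1 line and replicate number. On 17q21.2, the 3 replicate 3 pairs had the largest H3K27me3 differences and shDPPA4 replicate 1 was lower under DOX, and H2AK119ub was above 9% in the 3 DOX replicate 3 libraries alone.

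Promoter by promoter, limma with the pair as a block called 0 of 3473 tested promoters for H3K27me3 (0% called, adjusted p under 0.05), with 828 at an unadjusted p under 0.05. Of the 94 KRTAP promoters, 53 had any covered base and 40 were tested (a mean of at least 300 bp). Of these 40, 18 were under this unadjusted limit. Their median difference was 863 bp, and that of all tested promoters was 350 bp. The 300 bp mean was taken over H2O and DOX libraries together, so a promoter high under DOX alone could enter. Without this filter, the medians were 700 bp over 53 KRTAP promoters and 213.5 bp over all 4635 promoters. With the filter and covered bp scaled to 1 total per library, they were 473 and -22.2 bp. With the filter and without replicate 3, they were 167 and 55.7 bp. KRTAP17-1 had 2701 and 3001 bp under DOX in shDPPA2, 3001 and 3001 bp in shDPPA4, and 3001 and 3001 bp in shDPPA2+4. Each of these 6 values was above its H2O partner, and the mean difference was 922 bp (SE 250, limma adjusted p = 0.171). KRTAP4-2 had 1821 and 800, 2701 and 0, and 2180 and 500 bp under H2O and 3001 and 2621, 2700 and 3001, and 3001 and 2721 bp under DOX, the largest mean difference of a member (1507 bp). It was higher under DOX in 5 of 6 pairs, shDPPA4 replicate 1 being the exception. In the opposite direction, KRTAP19-3 had 1500 bp in shDPPA2 replicate 1 and 713 bp in shDPPA4 replicate 1 under H2O, and 0 bp in all 6 DOX libraries. When the replicate 1 libraries were left out, limma called 1144 of 3104 promoters (36.9%), among them 26 of the 40 KRTAP promoters tested (65%), all higher, and when the replicate 3 libraries were left out it called 0.

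Promoters were also sorted by a switch, a mark in every library of one treatment and none of the other. H3K27me3 was gained in shDPPA2 at 5 of 94 KRTAP promoters (KRTAP2-4, KRTAP26-1, KRTAP13-4, KRTAP15-1 and KRTAP11-1) against 0.62% of all promoters, in shDPPA4 at 1 (KRTAP8-1) against 0.485%, and in shDPPA2+4 at 1 (KRTAP2-4) against 0.67%. It was lost at 0 in shDPPA2 (0.465% of all), 0 in shDPPA4 (0.145%) and 1 in shDPPA2+4 (KRTAP9-6, 0.23%). Summed over the 3 lines this made 7 gained, with KRTAP2-4 counted in 2 lines, and 1 lost. With 1500 bp required for a mark it was 17 gained and 0 lost. The share of all promoters at 1500 bp is not given here, so these last counts cannot be set against it. KRTAP2-4, a high sulfur gene of 17q21.2 and the one named in 2 lines, had 0 and 0 bp in shDPPA2 (replicates 1 and 3), 1122 and 0 bp in shDPPA4, and 0 and 0 bp in shDPPA2+4 under H2O. Under DOX it had 479 and 1222, 0 and 1901, and 800 and 1122 bp, and shDPPA4 replicate 1 went the other way. The shDPPA2 libraries of H3K27me3 held 5951041 and 2227464 reads in domains under H2O (replicates 1 and 3). Under DOX they held 10431794 and 7295874. The part of depth in the switches was not tested.

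H2AK119ub at KRTAP promoters diverged between replicate numbers under DOX. It marked 10.6% and 25.5% in shDPPA2 (replicates 1 and 3), 1.06% and 25.5% in shDPPA4, and 4.26% and 33.0% in shDPPA2+4. The 3 replicate 3 libraries, which stood apart, were the 3 highest. The difference from H2O was 10.5 points (SD 10.8, 4 pairs higher, 2 lower, exact sign-flip permutation test, p = 0.125) and 1.77 points without replicate 3. Relative to all other promoters, whose share was 47.1 to 58.0% under H2O and 28.6 to 55.8% under DOX, the KRTAP difference was 18.7 points (SD 15.4, exact p = 0.03125). It was 5.20 points without replicate 3, where 3 pairs cannot go below an exact p of 0.25. The share of all other promoters averaged 51.9% under H2O and 43.7% under DOX, which enters this difference. On 17q21.2, 18, 19 and 25 of 34 promoters were marked in the 3 replicate 3 DOX libraries and 0 to 4 in the 3 of replicate 1. Of the KRTAP promoters with H3K27me3, 47.7 to 77.1% also carried H2AK119ub in the former and 2.78 to 15.6% in the latter.

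On 11q13.4, the H2AK119ub difference in cluster coverage was 13.5 points (SD 16.6, 4 pairs higher, 2 lower, exact p = 0.125) and 4.75 points without replicate 3, as the plot of paired libraries shows.

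KRTAP29-1, a high sulfur gene near the downstream end of the 17q21.2 cluster, had 0 bp of H2AK119ub in all 6 H2O libraries, and under DOX it had 1300 and 1700 bp in shDPPA2, 0 and 1400 bp in shDPPA4, and 0 and 1951 bp in shDPPA2+4. The 4 libraries above 0 comprised all 3 of replicate 3 (mean difference 1059 bp, limma adjusted p = 0.314). KRTAP5-10 had 238 and 900, 1538 and 0, and 538 and 1200 bp under H2O and 2601 and 2338, 0 and 2138, and 1701 and 2501 bp under DOX. Here too, shDPPA4 replicate 1 was the one pair of 6 that was lower under DOX. limma called 1 of 11395 promoters for H2AK119ub (0.00878%, 1632 at an unadjusted p under 0.05) and 0 of the 10 KRTAP promoters tested, 3 of which were under the unadjusted limit. Its filter again took H2O and DOX libraries together. Without the filter, it called 0 of 15359 promoters, 40 KRTAP promoters included. H2AK119ub was gained in every library of shDPPA2 at 3 of 94 KRTAP promoters (KRTAP5-6, KRTAP1-3 and KRTAP29-1) against 1.38% of all, at 0 in shDPPA4 (0.35%) and at 0 in shDPPA2+4 (0.77%). It was lost at 0 KRTAP promoters in shDPPA2 (2.7% of all), shDPPA4 (4.84%) and shDPPA2+4 (2.21%), where few were marked to begin with. These gains and losses include the DOX replicate 3 libraries, which stood apart, and are not given without them.

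Last, the effect of A-485 was examined in parental cells. H3K27me3 marked 50.0%, 47.9% and 7.45% of KRTAP promoters under DMSO (replicates 2, 3 and 4) and 43.6%, 45.7% and 18.1% under A-485. DMSO replicate 4, the shallowest library, was the lowest. The difference was 0.709 points (SD 8.86, 1 pair higher, 2 lower, exact sign-flip permutation test, p = 1, where 3 pairs cannot go below 0.25) and -4.26 points without replicate 4. Of all other promoters, 15.2%, 15.6% and 4.21% were marked under DMSO and 13.6%, 13.9% and 10.5% under A-485, so both groups were lowest in DMSO replicate 4. Under DMSO, 34, 34 and 7 of the 34 promoters of 17q21.2 were marked, 4, 3 and 0 of the 5 of 11q13.4, and 9, 8 and 0 of the 33 of 21q22.1. limma called 0 of 2974 promoters (0%, 33 at an unadjusted p under 0.05), 44 KRTAP promoters included. KRTAP11-1, a high sulfur gene of 21q22.1, had 2880, 1521 and 0 bp under DMSO and 1601, 21 and 0 bp under A-485, and KRTAP17-1 had 3001, 3001 and 110 bp and 3001, 3001 and 2401 bp. The second difference came from replicate 4 alone.

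H2AK119ub marked 13.8% and 1.06% of KRTAP promoters under DMSO (replicates 3 and 4) and 17.02% and 2.13% under A-485. Of all other promoters, 38.3% and 19.3% were marked under DMSO and 32.6% and 22.6% under A-485. The KRTAP shares gave a difference of 2.13 points (2 of 2 pairs higher, exact sign-flip permutation test, p = 0.5, the smallest value 2 pairs allow). It was 3.19 points in the replicate 3 pair, both libraries of which overlapped SUZ12 more than H2AK119ub, and 1.06 points in the replicate 4 pair. limma called 0 of 6734 promoters (0%, 175 at an unadjusted p under 0.05), and 7 KRTAP promoters were among those tested. KRTAP9-9 had 900 bp and KRTAP4-5 and KRTAP29-1 800 bp each in A-485 replicate 3, and all 3 had 0 bp in the other 3 libraries. On 21q22.3, 3 of 16 promoters were marked in replicate 3 under each treatment. Among them were KRTAP10-7 and KRTAP10-12 under DMSO alone, with means of 500 and 450 bp over the 2 DMSO libraries. KRTAP10-1 and KRTAP10-11 were marked under A-485 alone, with means of 303 and 200 bp over the 2 A-485 libraries. For H3K27ac, the replicate 2 pair had 0 of 94 under both treatments. The replicate 4 pair had 8 under DMSO and 0 under A-485 (exact p = 1). The 8 came from a list that held 112108 domains, against 33889 in DMSO replicate 2 and 26513 in A-485 replicate 4, and that shared its input counts with the A-485 lists of other marks. They included KRTAP5-5 (1326 bp), KRTAP5-7 (1300 bp) and KRTAP5-9 (1281 bp). limma called 0 of 13693 promoters for H3K27ac (0%, 3363 at an unadjusted p under 0.05), 3 KRTAP promoters included.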

How the data were processed

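Per the labels and the study, NCI-H661 ChIP was spiked with mouse embryonic stem cell chromatin, and the authors removed mouse reads with XenofilteR. The submitters' processing notes name the build hg38 and the tools Trim Galore 0.6.6, BWA 0.7.13, Picard 2.6.0, SAMtools 1.9 and deepTools 3.5.0. The authors called domains with EPIC2 in each library against an input; the SUZ12 list has the same columns, although the study names MACS2 for it. The deposited columns hold whole counts of ChIP and input reads per domain, the log2 fold change over input and its p-value and FDR, and a deposited score that was not used. The spike-in reads were not used here. Of 59 samples, 51 had a list and 8 were inputs.

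Domains with log2 fold above 1 and FDR under 0.05 were kept and merged, and the covered bases of each promoter window, cluster and 10 kb bin were summed. Reads in domains and covered bases move together between libraries, and the part of sequencing depth was not tested. The KRTAP genes and all lists were chosen with earlier results of these data known. Protein classes were computed from the annotated coding sequences. For shares and coverage, all sign flips of the paired differences gave an exact two-sided permutation p, where a pair is 1 line and replicate number (6 pairs in the knockdown experiment, 3 or 2 in the inhibitor experiment), adjusted by the method of Benjamini and Hochberg. Covered bp per promoter was fitted with limma 3.58.1 in R 4.3.3 over all promoters with a mean of at least 300 bp, with the pair as a block, since the study made its replicates in complete batches. Deviations from group means were correlated between libraries of the same mark and replicate number in different groups, those of different lines included. In the knockdown experiment, 30 such library pairs per mark gave -0.017 to 0.495 for H3K27me3, 0.073 to 0.48 for H2AK119ub and 0.026 to 0.175 for H3K4me3. The inhibitor experiment gave 0.187 to 0.506. The knockdown ranges do not measure the correlation within the blocks alone. On simulated data with the samples' own spread, the H3K27me3 DOX fit recovered 25% of promoters changed by 1000 bp and 79% of those changed by 2000 bp, and the H2AK119ub DOX fit 2% and 53%. The noise was drawn independently for each promoter, without shifts in depth shared by a whole library. These figures therefore need not hold for the real libraries. Python 3.11.15 with numpy 2.4.6, pandas 2.3.3 and matplotlib 3.10.9 did the rest. Members were named by rule: the 10 with most H3K27me3 and most H2AK119ub under H2O, all marked by SUZ12, the largest differences in each direction, and all switched in 2 or more lines. The members gained or lost in 1 line, KRTAP9-7, KRTAP10-1, KRTAP10-11 and the genes of shown sequences were named after their values were seen. No pair of libraries had identical values.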

Additional observations from a re-analysis of the deposited data

Results flagged for a closer look

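In 36 groups of 4 to 6 values, the highest and lowest library were compared with the nearest other one by Dixon's ratio, which chance passes in about 1 of 20 groups. For H2AK119ub over 11p15.5 under H2O, the highest of 6 libraries, shDPPA2+4 replicate 1 with 11.6% of bases covered, stood apart. For H2AK119ub over 21q22.1 under DOX, 1 of 6 libraries had 0.0923% of bases covered and the other 5 had none.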

How the results depend on the processing

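Of 226 values recomputed under the alternatives, 183 kept their direction and their side of the threshold. Chosen after seeing the data were 3 alternatives: cluster coverage in points relative to the rest of the genome, its log2 ratio to it, and shares relative to all other promoters with a replicate left out. Leaving out 1 replicate number leaves 3 pairs, which cannot pass. The differences from the rest of the genome then ranged from 18.7 to 43.8 points (17q21.2 H3K27me3), 11.7 to 26.7 (11q13.4 H3K27me3), 8.42 to 8.57 (11q13.4 H2AK119ub) and -2.78 to -2.12 (21q22.1 H3K27me3), and 17q21.2 H2AK119ub, at -0.595, ranged from -1.48 to 0.289. KRTAP minus all other promoters ranged from 16.2 to 24.6 points for H3K27me3, -52.1 to -39.3 for H2AK119ub and -70.7 to -70.3 for H3K4me3, and KRTAP minus olfactory receptors from 22.2 to 29.1 for H3K27me3. The KRTAP H3K27me3 difference under DOX ranged from -0.355 to 14.2 points and that of 21q22.1 coverage from -0.169 to 4.25. Without replicate 1, limma called 1144 of 3104 promoters (36.9%) and 26 of 40 KRTAP promoters for H3K27me3 (0 and 0 without replicate 3), and for H2AK119ub it called 0 without either. Requiring 1500 bp lowered KRTAP minus others for H3K27me3 to 7.97, and gave 17 gained and 0 lost KRTAP promoters for H3K27me3 (7 and 1 at 300 bp) and 5 gained and 1 lost for H2AK119ub (3 and 0). The shares of all promoters gained or lost at 1500 bp are not given here. With 1 bp, 0 lost H3K27me3, and KRTAP minus olfactory receptors for H2AK119ub passed at 6.62. Relative to all other promoters, the DOX differences of H2AK119ub (18.7) and H3K4me3 (-0.368, where KRTAP is at 0 throughout) passed, and with a replicate left out as well the H2AK119ub difference was 5.20 to 32.2, that of H3K4me3 -0.469 to -0.268 and that of H3K27me3 -0.17 to 11.95. Relative to the rest of the genome, 21q22.1 H3K27me3 differed by -1.37 under DOX, and the log2 ratio of 17q21.2 by -0.12. No filter on low values gave 0 H2AK119ub calls, and scaling covered bp to 1 total gave 1936 H3K4me3 calls, none of them a KRTAP promoter. For A-485, H3K27me3 (0.709) was -4.61 at 1500 bp, -3.55 with 500 bp on each side, 4.26 to -4.26 with a replicate left out and -0.28 relative to all others, H2AK119ub was -0.532 at 1500 bp, and H3K27ac (-4.26) was 17.98 relative to all others. The cause of these changes was not tested, beyond the smaller number of samples.

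Without the replicate block, the DOX differences had exact permutation p-values of 0.13 (H3K27me3, 6.91 points) and 0.121 (H2AK119ub, 10.5 points), H3K4me3 stayed at 0 and the A-485 differences were 0.709, 2.13 and -4.26 points. limma without the pairing called 0, 1 and 0 promoters for H3K27me3, H2AK119ub and H3K4me3 under DOX and 0 for each mark under A-485, and the 1 called promoter was the same in both fits, so the block changed no call. Leave-one-out fits of limma for A-485 H2AK119ub and H3K27ac could not be made, since 1 pair leaves no residual degrees of freedom. The H2O replicate 3 lists of H3K27me3 held the fewest reads in domains among the 12 of this mark in the knockdown experiment, and the part of depth in their lower shares was not tested.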
